A study of Mus musculus with 16 samples.

Results

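The genes described here are 45 interferon-stimulated and RNA-sensing genes, chosen by name, in mouse embryonic fibroblasts (MEFs) at the start of reprogramming. Of the 45 symbols, 43 had a row among the 18990 genes of the deposited expression table, and Mx1 and Oas2 were not analysed here. A test was run on the 36 members whose log2 CPM averaged 0 or more over all libraries, CPM being the reads of a gene scaled to the size of its library. The 7 other members (Ifi44, Isg15, Mx2, Oas1a, Oasl1, Psmb9 and Rsad2) lay below that limit and are given by their reads.

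Cells recognise double-stranded RNA with helicases such as RIG-I (Ddx58) and MDA5 (Ifih1), which signal through IRF transcription factors to switch on interferon genes. Secreted interferon then acts through JAK kinases on a complex that includes STAT2 and IRF9, which binds a promoter motif called the interferon-stimulated response element. The genes it activates include the IFIT and OAS proteins, which bind or act on viral RNA, and the guanylate-binding and immunity-related GTPases, and many of them are made at a low level in fibroblasts without infection.

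All cells were wild-type BL6 MEFs at passage 2 that carried lentiviruses for rtTA and for the doxycycline-inducible tet-STEMCCA cassette with Oct4, Sox2, Klf4 and c-Myc (OSKM), at a multiplicity of infection of 1. They were transfected with 40 nM of pooled siRNAs, and doxycycline at 2 ug/mL was added after replating, in medium with 3 uM chiron, 0.25 uM Alk5i, 50 ug/mL ascorbic acid and LIF. The 4 conditions were a non-targeting control (nt), siWdr5, siBrca1 and siBard1, each at day 3 and day 6, with 2 libraries a group from independent experiments, named R1 and R2 below. No sort of the cells is described, so each library holds RNA of the whole culture, and a change in the share of a cell type and a change in RNA per cell cannot be told apart. The nt cells also received siRNA and lipid, so a response shared by all transfected cells would be in the control too.

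The libraries held 11169738 to 26832534 reads, and 3 reads were worth 0.115 to 0.260 CPM. CPM values below are the deposited ones taken out of the log, so that 0 reads reads as 0.136 CPM. At day 3 each siRNA target was below nt in its own knockdown. Wdr5 was at 50.6 and 55.3 CPM in siWdr5 against 132 and 130.5 CPM in nt, Brca1 at 37.5 and 19.4 CPM in siBrca1 against 82.4 and 78.0 CPM, and Bard1 at 18.0 and 20.8 CPM in siBard1 against 30.5 and 29.1 CPM. Bard1 does not mark the siBard1 libraries, since its fall there (log2 fold change -0.62, adjusted p = 0.0422) was the smallest of the 3 knockdowns: it fell by 1.38 in siBrca1 (adjusted p = 7.26e-05), a difference from siBard1 that passed (0.76, adjusted p = 0.0136), and by 1.03 in siWdr5 (adjusted p = 0.00108), a difference that missed the threshold (0.41, adjusted p = 0.188). By day 6 no target was lower than in nt at adjusted p under 0.05 (Wdr5 in siWdr5 -0.27, Brca1 in siBrca1 0.01, Bard1 in siBard1 0.11). Fibroblast markers were present in every library, with a sum of 4716 to 14198 CPM over 10 genes.

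The promoters of several members carry the letters that the interferon-activated complex binds. RefSeq promoter sequences (GRCm38.p6, 250 bases before to 50 after the start) were available for 34 members, and for 11 none was available. The core of the response element, TTTCNNTTTC, was searched on both strands with overlaps allowed and was in 14 of the 34 (41.2%), against 3.99% of 27025 promoters in the same table. The gamma-activated site TTCNNNGAA was in 9 (26.5%), against 9.55% of all promoters. Both were in 4 (11.8%), against 0.614%. These windows are shown because the genes they belong to moved in different ways: Ifit1 and Gbp2 rose in knockdown cells, Ifit3 differed between knockdowns, Bst2 fell, and Isg15 lay below the level set for a test. Each window is 30 bases upstream of the start, written along the gene, with the core match (or its reverse complement) in capitals.
Ifit1, chr19:34640775-34640804 (plus strand): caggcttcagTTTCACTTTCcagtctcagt
Ifit3, chr19:34583363-34583392 (plus strand): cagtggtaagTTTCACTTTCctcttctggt
Gbp2, chr3:142620594-142620623 (plus strand): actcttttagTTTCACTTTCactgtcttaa
Bst2, chr8:71537577-71537606 (minus strand): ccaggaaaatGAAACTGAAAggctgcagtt
Isg15, chr4:156200877-156200906 (minus strand): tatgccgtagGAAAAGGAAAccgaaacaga
Ifit1, Ifit3 and Gbp2 show the same letters in capitals, and Ifit1 and Ifit3 each held a further match closer to the start. Bst2 held a further match that overlaps the one shown. In Isg15 the match shown starts at base -78 from the start site. A further match at -72 overlaps it, and another at -66 does not. Tap1, which rose in siWdr5 at day 6, held neither motif, and Bst2, which fell there, held a gamma-activated site. That site was also in the promoter of Irf1 and of Psmb8, and these windows are shown because both genes rose in siWdr5 at day 6.
Irf1, chr11:53769914-53769943 (plus strand): acagcctgatTTCCCCGAAatgatgaggcc
Psmb8, chr17:34198088-34198117 (plus strand): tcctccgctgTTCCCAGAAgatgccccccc

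Of the 13 members with a promoter sequence that were higher in siBrca1 or siBard1 at day 3, 7 held the response element core (53.8%), as did 4 of the 15 other tested members (26.7%). Both motifs were in 1 of the 13 (7.69%) and 2 of the 15 (13.3%). The groups come from the tests reported here, the counts are small, and the difference was not tested. A match is a run of letters in this window, and its use in these cells was not measured.

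**Figure D1:**
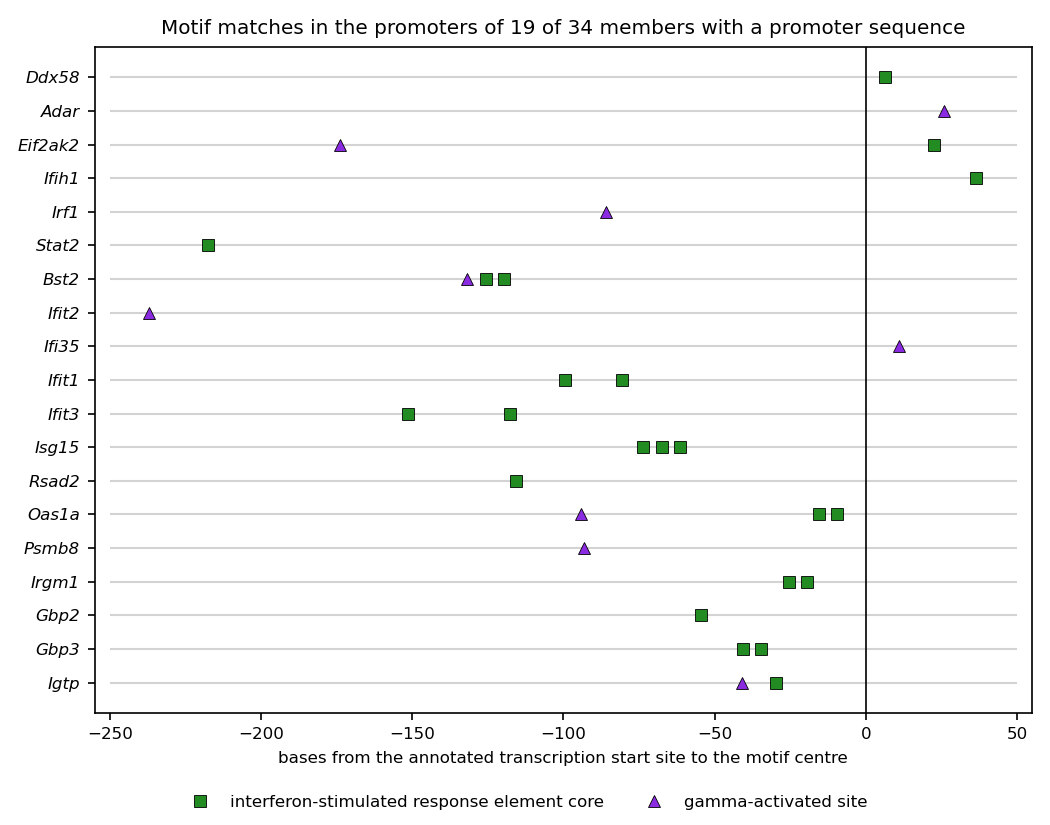
Position of each motif match (squares, interferon-stimulated response element core; triangles, gamma-activated site) in bases from the annotated transcription start site, for the 19 members with a match among the 34 with a promoter sequence. In Ifit1, Ifit3, Isg15, Bst2, Oas1a, Irgm1 and Gbp3 the response element core occurs more than once upstream of the start, whereas in Ddx58, Eif2ak2 and Ifih1 it lies after it.

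At day 3 several antiviral effectors rose in siBrca1 and siBard1 cells, and 3 RNA sensors rose too, Ddx58 and Eif2ak2 in both knockdowns and Ifih1 in siBrca1. In siBrca1, 15 of 36 members rose and 2 fell (limma, adjusted p under 0.05), where 25.4% of 14028 genes rose and 21.8% fell. In siBard1, 9 rose and 1 fell, where 8.67% of genes rose and 5.87% fell. In siWdr5, 4 rose and 2 fell, against 18.3% and 16.8% of genes. The median log2 fold change over the 36 members was 0.44 in siBrca1, 0.35 in siBard1 and -0.03 in siWdr5, beside medians over all genes tested of 0.00, -0.02 and -0.04. The 3 comparisons share their nt libraries. The members also differed between those libraries, with 27 of 36 higher in nt R1 than in nt R2 (median 0.12), where 49.8% of all genes were. Members that move together are not separate observations. Here and below, counts from refits without 1 library stand without the share of all genes in the same refit. They cannot show whether members lost calls more than other genes did. The count for siBard1 rested on each library: without nt R1 it was 4 higher and 0 lower, without nt R2 3 and 0, without siBard1 R1 4 and 1, and without siBard1 R2 4 and 0. For siBrca1, leaving out nt R2 gave 8 higher and 0 lower, and the other 3 omissions gave 13 to 14 higher.

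**Figure D2:**
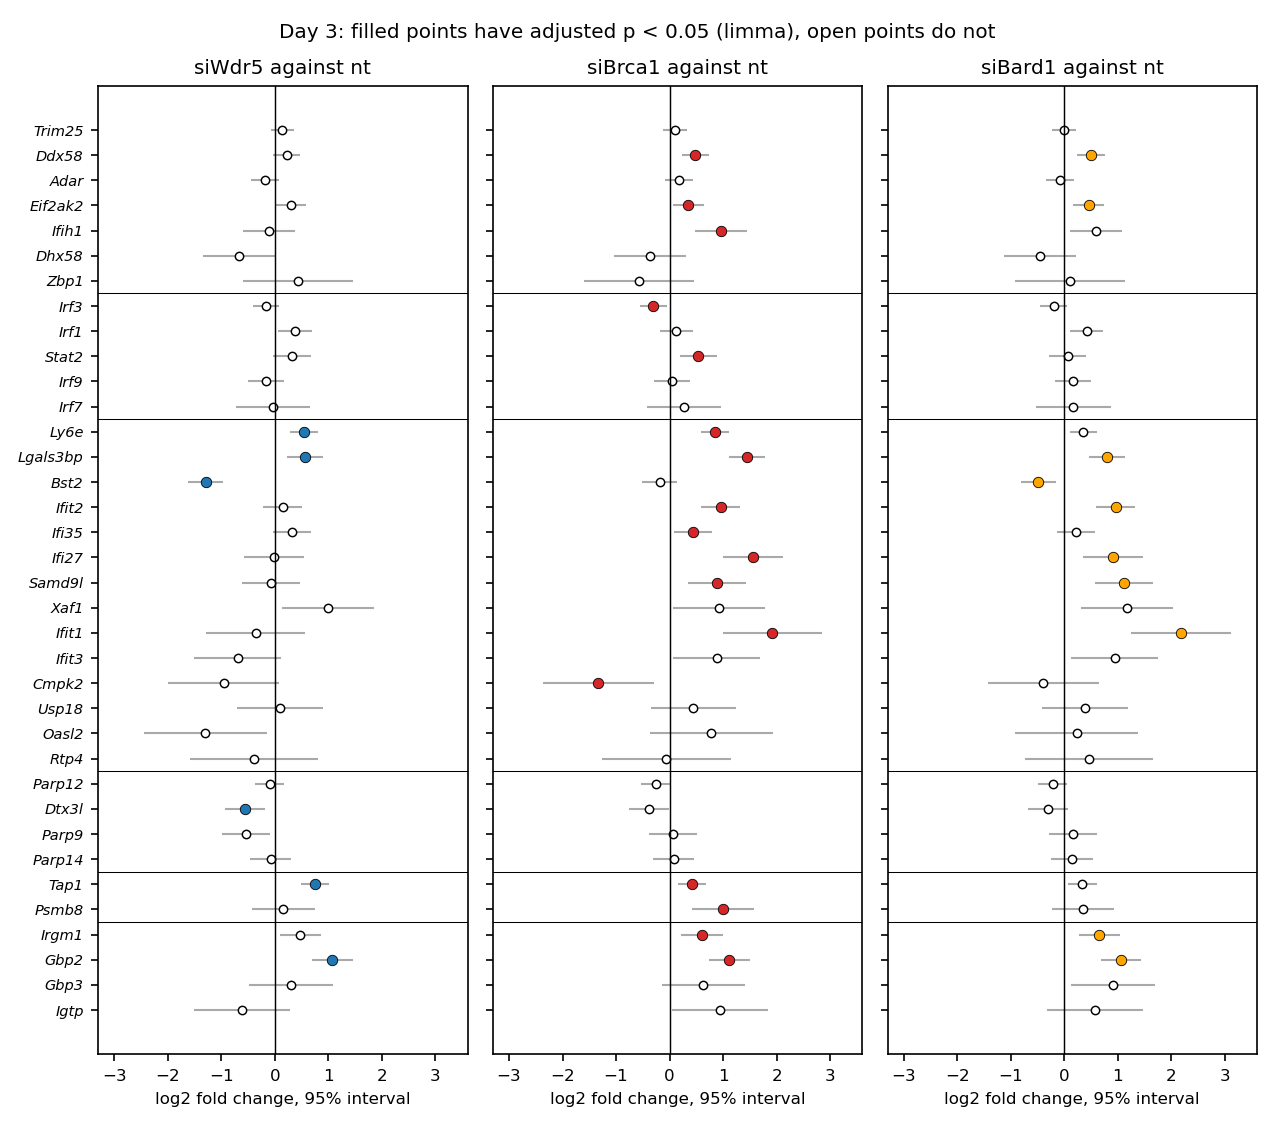
Log2 fold change against nt at day 3 (horizontal axis, with its 95% interval) of the 36 tested members in each knockdown, grouped by role from RNA sensors at the top to interferon-inducible GTPases at the bottom; filled points have adjusted p under 0.05. Ifit1, Ifit2, Ifi27, Samd9l and Lgals3bp are filled on the right in siBrca1 and siBard1, and Bst2 is filled on the left in siWdr5 and siBard1.

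Among the RNA sensors, Ifih1, the helicase MDA5 that senses long double-stranded RNA, lay at 4.49 and 3.16 CPM in nt, 3.43 and 3.52 CPM in siWdr5, 7.0 and 7.73 CPM in siBrca1 and 5.11 and 6.32 CPM in siBard1. Both siBrca1 libraries were above all others of day 3, and siBard1 lay between them and nt. Ifih1 rose in siBrca1 by 0.97 on the log2 scale (SE 0.23, adjusted p = 0.00309), and its value was 0.59 in siBard1 (adjusted p = 0.0906) and -0.12 in siWdr5 (adjusted p = 0.722). The difference between siBrca1 and siWdr5 passed too (1.08, adjusted p = 0.00596).

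Ddx58, which encodes the RNA helicase RIG-I, was at 27.0 and 25.7 CPM in nt, 28.8 and 32.7 CPM in siWdr5, 36.5 and 37.1 CPM in siBrca1 and 36.0 and 38.8 CPM in siBard1. The siBrca1 and siBard1 libraries sat above every nt and siWdr5 library. The rise was 0.48 in siBrca1 (SE 0.12, adjusted p = 0.00461) and 0.50 in siBard1 (SE 0.12, adjusted p = 0.0140), while the value in siWdr5 was 0.22 (adjusted p = 0.172). Eif2ak2, the kinase PKR that stops translation when it binds double-stranded RNA, was at 22.7 and 23.7 CPM in nt, 27.4 and 29.8 CPM in siWdr5, 27.2 and 32.0 CPM in siBrca1 and 29.4 and 34.5 CPM in siBard1. All 6 knockdown libraries were above both nt libraries. The rise passed in siBrca1 (0.35, SE 0.13, adjusted p = 0.0452) and siBard1 (0.46, SE 0.13, adjusted p = 0.0361), and siWdr5 had a value of 0.30 (adjusted p = 0.0928).

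The other 4 sensors and RNA-binding enzymes did not pass in any knockdown at day 3. Trim25, a ubiquitin ligase that activates RIG-I, stayed between 81.0 and 94.8 CPM in all 8 libraries. Adar, which edits adenosines in double-stranded RNA, ranged from 30.4 to 42.3 CPM, with siBrca1 R2 the highest. Dhx58, which encodes the helicase LGP2, was at 2.44 and 1.85 CPM in nt and between 1.13 and 1.83 CPM in the 6 knockdown libraries. Its values lay below both nt libraries in all of them (log2 fold change -0.67 in siWdr5, -0.37 in siBrca1 and -0.46 in siBard1, adjusted p = 0.110 to 0.350). Zbp1, a sensor of left-handed nucleic acids, held 5 to 27 reads a library, and its nt libraries (1.79 and 0.935 CPM) spanned most of the knockdown range.

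Of the transcription factors, Stat2, the interferon receptors' signal carrier, rose in siBrca1, from 14.7 and 12.5 CPM in nt to 17.2 and 22.4 CPM (0.54, SE 0.16, adjusted p = 0.0149). It was at 16.1 and 17.9 CPM in siWdr5 and at 14.7 and 13.5 CPM in siBard1, the latter overlapping with nt. Irf3, the factor that RNA sensors activate first, fell in siBrca1 by 0.30 (SE 0.11, adjusted p = 0.0427), from 45.8 and 42.6 CPM to 37.5 and 34.3 CPM, and lay between 37.2 and 40.5 CPM in the other 4 knockdown libraries. No knockdown library reached the nt range for Irf3.

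Irf9, the DNA-binding partner of STAT2, was at 9.47 to 12.4 CPM in all 8 libraries, with the groups of nt (11.3 and 10.1 CPM) and siBrca1 (11.6 and 10.5 CPM) overlapping. Irf7, the amplifier of interferon genes, held 1.60 to 3.01 CPM, and nt (1.92 and 2.42 CPM) overlapped with siWdr5 and siBard1. Irf1, which drives antigen processing genes, was at 16.8 and 18.6 CPM in nt, 21.0 and 25.2 CPM in siWdr5, 21.2 and 17.6 CPM in siBrca1 and 24.1 and 23.2 CPM in siBard1. Both siWdr5 and both siBard1 libraries were above nt, with log2 fold changes of 0.38 (adjusted p = 0.0575) and 0.42 (adjusted p = 0.0672) that missed the threshold.

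Among the tested members, Ifit1 had the largest rise against nt at day 3 in both siBrca1 and siBard1. Its product binds viral RNA that lacks the host cap. The gene lay at 1.19 and 0.421 CPM in nt (16 and 5 reads), 0.510 and 0.601 CPM in siWdr5, 3.09 and 2.32 CPM in siBrca1 (40 and 31 reads) and 3.57 and 2.89 CPM in siBard1 (49 and 53 reads). The siBrca1 and siBard1 libraries did not overlap with nt or siWdr5. Its log2 level rose by 1.92 with siBrca1 and by 2.18 with siBard1, each with an SE of 0.43 (adjusted p = 0.00242 and 0.00570). The siBard1 call was lost without nt R2 (1.43, adjusted p = 0.0657) and without siBard1 R1 (2.03, adjusted p = 0.0611).

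Ifit2, a neighbour of Ifit1 that binds RNA rich in A and U, was at 8.12 and 7.44 CPM in nt, 7.72 and 9.56 CPM in siWdr5, 13.7 and 16.6 CPM in siBrca1 and 15.8 and 14.4 CPM in siBard1. Again siBrca1 and siBard1 stood together above nt and siWdr5. The rise was 0.96 in each (SE 0.17, adjusted p = 0.000479 and 0.00300). Ifit3, which stabilises IFIT1, had 22 and 12 reads in nt and 24 to 35 reads in siBrca1 and siBard1, and its rises of 0.88 and 0.94 did not pass (adjusted p = 0.0708 and 0.108). The 3 genes lie on the plus strand of chromosome 19 (GRCm38), Ifit2 at 34550694 to 34576419, Ifit3 at 34583531 to 34588731 and Ifit1 at 34640871 to 34650009. Ifit3 has a close copy, Ifit3b, and how reads that fit both were counted is not given in the sources used here.

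Ifi27, a mitochondrial interferon-induced protein, was at 3.10 and 4.41 CPM in nt, 3.37 and 3.99 CPM in siWdr5, 8.54 and 13.8 CPM in siBrca1 and 7.92 and 6.06 CPM in siBard1. Neither knockdown overlapped with nt, and the rise was larger in siBrca1 (1.55, SE 0.26, adjusted p = 0.000305) than the 0.90 of siBard1 (adjusted p = 0.0343), a difference that missed the threshold when tested (adjusted p = 0.0904). Samd9l, a translation inhibitor, was at 3.24 and 2.99 CPM in nt and 3.62 and 2.39 CPM in siWdr5, and at 5.15 and 6.47 CPM in siBrca1 and 5.81 and 7.77 CPM in siBard1. Samd9l rose by 0.89 with siBrca1 (SE 0.25, adjusted p = 0.0100) and by 1.11 with siBard1 (adjusted p = 0.0116), and the latter call was lost without nt R1, nt R2 or siBard1 R2 (adjusted p = 0.0685, 0.0871 and 0.129).

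Lgals3bp, a secreted galectin-binding glycoprotein, rose in all 3 knockdowns, from 33.4 and 34.5 CPM in nt to 47.1 and 52.9 CPM in siWdr5, 77.7 and 110.2 CPM in siBrca1 and 66.4 and 52.8 CPM in siBard1. In that order its rises were 0.56, 1.45 and 0.80 on the log2 scale (adjusted p = 0.0137, 1.33e-05 and 0.00522). Ly6e, a membrane protein that blocks viral fusion, was at 81.0 and 78.6 CPM in nt and at 93.5 to 155 CPM in the knockdown libraries, and rose in siWdr5 (0.54, adjusted p = 0.00332) and siBrca1 (0.85, adjusted p = 8.55e-05). These 2 genes were the members that differed between siBard1 and siBrca1. Ly6e was lower in siBard1 by 0.49 on the log2 scale (adjusted p = 0.0122) and Lgals3bp by 0.64 (adjusted p = 0.0122). Where 8.33% of genes were higher and 13.1% lower in that comparison, 0 members were higher and 2 lower. None passed without siBrca1 R2 or without siBard1 R2, and 7 did without siBrca1 R1 (3 higher and 4 lower).

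Bst2 and Cmpk2 were the effectors that fell at day 3. Bst2 encodes tetherin, which holds budding virus at the cell surface, and was at 26.8 and 24.8 CPM in nt, 10.2 and 10.9 CPM in siWdr5, 21.5 and 23.9 CPM in siBrca1 and 21.0 and 16.1 CPM in siBard1. Bst2 fell by 1.29 on the log2 scale in siWdr5 (SE 0.15, adjusted p = 4.41e-05) and by 0.49 in siBard1 (SE 0.15, adjusted p = 0.0458), and its value in siBrca1 was -0.19 (adjusted p = 0.331). Cmpk2, a mitochondrial nucleotide kinase, held 30 and 33 reads in nt and 20 and 4 reads in siBrca1. Its fall of 1.33 in siBrca1 (SE 0.48, adjusted p = 0.0353) rested on siBrca1 R2, without which it was -0.36 (adjusted p = 0.503), and the call was also lost without nt R1 or nt R2 (adjusted p = 0.122 and 0.1).

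**Figure D3:**
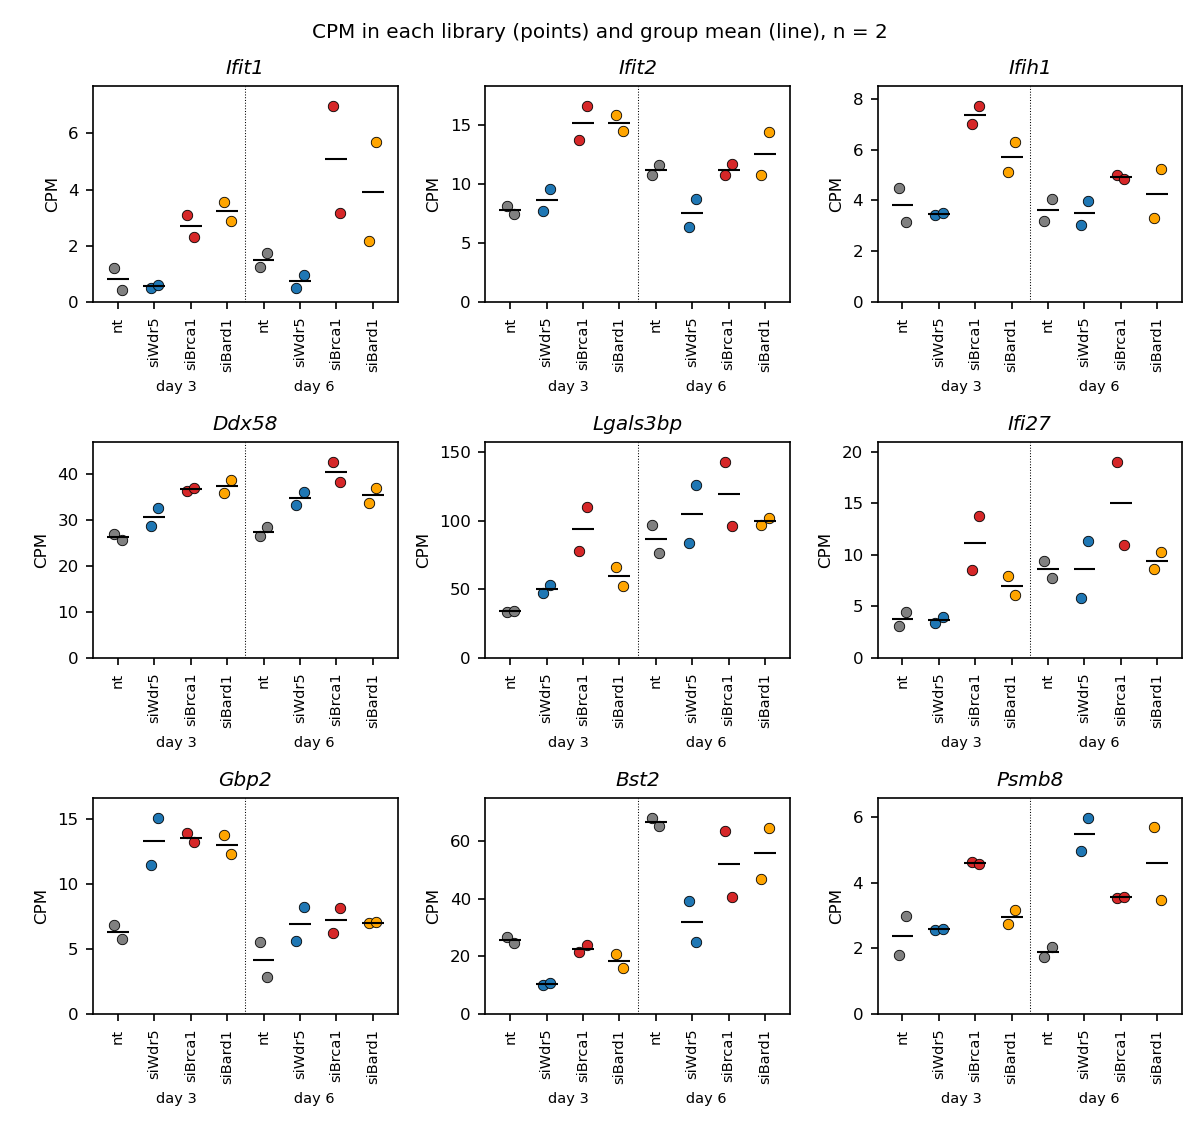
CPM of 9 members (vertical axis, linear from 0) in each library, as points coloured by condition, with the group mean as a line (n = 2), for day 3 on the left and day 6 on the right of each panel. At day 3 Ifit1, Ifit2 and Ifi27 are higher in siBrca1 and siBard1 than in nt and siWdr5, while Bst2 is lowest in siWdr5 on both days.

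Of the 5 remaining effectors tested, Ifi35 rose in siBrca1 (0.44, adjusted p = 0.0419). Xaf1, Usp18, Oasl2 and Rtp4 did not pass in a knockdown at day 3, with 3 to 33 reads a library. Xaf1, an apoptosis regulator, had values of 0.98, 0.93 and 1.18 in siWdr5, siBrca1 and siBard1 (adjusted p = 0.0704, 0.0705 and 0.0632), and its nt libraries were far apart at 1.46 and 0.593 CPM. Oasl2, an OAS-like protein, was at 1.46 and 0.536 CPM in nt, 0.385 and 0.335 CPM in siWdr5 and 2.35 and 0.980 CPM in siBrca1.

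The untested effectors were few in reads at day 3. Rsad2, which encodes viperin, held 5 and 4 reads in nt, 0 and 3 in siWdr5, 13 and 14 in siBrca1 and 14 and 28 in siBard1, so that no siBrca1 or siBard1 library overlapped with nt. Isg15, the ubiquitin-like modifier, held 20 and 6 reads in nt, 3 and 6 in siWdr5, 25 and 15 in siBrca1 and 29 and 16 in siBard1, and in CPM each knockdown overlapped with nt. Mx2 had 1 to 10 reads, Oas1a 2 to 8, Oasl1 0 to 9 and Ifi44 0 to 2 reads a library at day 3, too few to resolve a difference. With no filter on low values, Rsad2 in siBrca1 (1.43, adjusted p = 0.0412) was the untested member that passed at day 3.

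The PARP genes, ADP-ribosyltransferases of the interferon response, did not rise at day 3. Parp12 lay at 22.9 to 29.4 CPM, Parp14 at 5.55 to 6.58 CPM and Parp9 at 5.36 to 10.3 CPM, and none passed in a knockdown. Dtx3l, the ubiquitin ligase that pairs with PARP9, was at 18.4 and 17.5 CPM in nt and 12.2 CPM in both siWdr5 libraries, a fall of 0.55 on the log2 scale (SE 0.17, adjusted p = 0.0233). Parp9 and Dtx3l lie head to head on chromosome 16 (GRCm38), with 9.4% and 8.0% of their exon bases overlapping on opposite strands. Whether strand was used in the counting is not given in the sources used here, so reads of the shared bases cannot be assigned.

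Of the antigen processing genes, Tap1 had its highest level in siWdr5 and Psmb8 in siBrca1. Tap1, the peptide transporter of the endoplasmic reticulum, was at 22.2 and 24.0 CPM in nt, 38.1 and 39.5 CPM in siWdr5, 29.6 and 32.1 CPM in siBrca1 and 31.5 and 26.9 CPM in siBard1. All knockdown libraries were above nt, and the rise passed in siWdr5 (0.75, SE 0.13, adjusted p = 0.000590) and siBrca1 (0.42, SE 0.13, adjusted p = 0.0140). Psmb8, an immunoproteasome subunit, was at 1.79 and 2.99 CPM in nt, 2.56 and 2.59 CPM in siWdr5, 4.64 and 4.57 CPM in siBrca1 and 2.73 and 3.15 CPM in siBard1. It rose in siBrca1 by 0.99 (SE 0.27, adjusted p = 0.00814), where both libraries lay above the rest. Psmb9, its partner subunit, was untested, with 10 and 3 reads in nt and 15 and 12 in siBrca1. Tap1 and Psmb9 overlap on opposite strands in 3.87% and 5.79% of their exon bases, where the same limit on assigning reads holds.

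The interferon-inducible GTPase Gbp2, a coat protein for intracellular pathogens, rose in all 3 knockdowns. It was at 6.80 and 5.73 CPM in nt, 11.5 and 15.1 CPM in siWdr5, 13.9 and 13.2 CPM in siBrca1 and 13.7 and 12.2 CPM in siBard1. The log2 fold changes were 1.07, 1.12 and 1.06 (SE 0.18, adjusted p = 0.000503, 0.000199 and 0.00206), and the interval of the difference between siBard1 and siBrca1 ran from -0.44 to 0.32. Irgm1, an autophagy-linked GTPase, rose in siBrca1 (0.60, adjusted p = 0.0131) and siBard1 (0.66, adjusted p = 0.0275). Gbp3, which lies beside Gbp2 on chromosome 3 (142560026 to 142573209, GRCm38), and Igtp did not pass in a knockdown against nt.

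Directly compared with siWdr5 at day 3, siBrca1 and siBard1 cells had higher IFIT gene levels. In siBard1, 6 members were higher than in siWdr5 and 0 lower, against 3.78% and 4.85% of genes, and these were Ifit1 (2.54, adjusted p = 0.00340), Ifit3 (1.64, adjusted p = 0.0179), Ifit2 (0.81, adjusted p = 0.0110), Samd9l (1.19), Ifi27 (0.92) and Bst2 (0.80). Leaving out siWdr5 R1 left 1 of the 6 calls, and each of the other 3 omissions left 2. In siBrca1, 10 members were higher than in siWdr5 and 0 lower, against 10.2% and 5.47% of genes. They included Ifit1 (2.27, adjusted p = 0.00343), Oasl2 (2.08, adjusted p = 0.0183), Ifit3 (1.58, adjusted p = 0.0130), Ifi27 (1.57, adjusted p = 0.00154), Igtp (1.56, adjusted p = 0.0221) and Bst2 (1.11, adjusted p = 0.000438). Without siWdr5 R1 the 10 were 3, and without siWdr5 R2 they were 6.

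From day 3 to day 6 the nt cells themselves changed in 11 members, of which 8 rose and 3 fell, against 19% and 27.1% of all genes. Bst2 went from 26.8 and 24.8 CPM to 68.3 and 65.2 CPM, a rise of 1.37 (SE 0.22, adjusted p = 0.000161). Lgals3bp went from 33.4 and 34.5 CPM to 96.7 and 76.2 CPM, a rise of 1.34 (SE 0.21, adjusted p = 0.000134). Neither gene overlapped between days. Ifi35 (0.73, adjusted p = 0.00640) and Ifit2 (0.52, adjusted p = 0.0371) rose by less.

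Igtp, an immunity-related GTPase, rose from 9 and 13 reads to 28 and 24 reads (1.46, adjusted p = 0.00604), and Ifi27 from 3.10 and 4.41 CPM to 9.41 and 7.79 CPM (1.21, adjusted p = 0.00619). Rtp4, a chaperone of membrane receptors, went from 0.994 and 0.364 CPM to 1.98 and 1.41 CPM (1.47, adjusted p = 0.0310), and Xaf1 from 1.46 and 0.593 CPM to 2.30 and 2.53 CPM (1.38, adjusted p = 0.0156). Both were low in nt R2 at day 3, and without that library the rises were 0.75 (adjusted p = 0.340) for Rtp4 and 0.73 (adjusted p = 0.240) for Xaf1. The Ifi27 call was lost without nt day 3 R1 or nt day 6 R1 (adjusted p = 0.0733 and 0.0544), the Rtp4 call also without either nt day 6 library (adjusted p = 0.166 and 0.0524), and likewise that of Xaf1 (adjusted p = 0.0531 and 0.0719).

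The members that fell along the nt course were Trim25, by 0.63 (adjusted p = 0.000307), Parp12, by 0.75 (adjusted p = 0.000692), and Dtx3l, by 0.87 (adjusted p = 0.00116). Trim25 dropped from 84.6 and 83.5 CPM to 52.7 and 55.6 CPM, while the remaining RNA sensors did not pass. Ifih1 was at 3.18 and 4.04 CPM in nt at day 6, Ddx58 at 26.7 and 28.4 CPM, Dhx58 at 2.22 and 2.45 CPM, Eif2ak2 at 18.7 and 18.4 CPM, Zbp1 at 2.06 and 1.73 CPM and Adar at 27.3 and 30.9 CPM. Leaving out nt day 3 R2 left 4 rises and 3 falls. Markers of other kinds moved along the same course. Of 10 fibroblast markers, 4 rose (Postn, Pdgfra, Thy1 and Twist2, by 1.05 to 1.62), where 19% of all genes did. The 3 that fell were Col1a1 (by 1.83), Vim (by 0.64) and Col1a2, where 27.1% of all genes fell. The sum of the 10 was 7734 and 8738 CPM at day 3 and 4920 and 4716 CPM at day 6. The macrophage and leukocyte markers Lyz2 (2.19, adjusted p = 0.0154) and Cd14 (1.38, adjusted p = 0.00758) rose, 2 of the 4 tested, and the endothelial Tek fell by 1.49 (adjusted p = 6.79e-05). Kdr, the other endothelial marker tested, did not pass (-1.20, adjusted p = 0.0567). The untested Pecam1 held 3 and 0 reads in nt at day 3 and 6 reads in both nt libraries at day 6. The part of these in the members' changes was not tested.

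At day 6 the siWdr5 cells had 3 members higher and 1 lower than nt, against 16.1% and 5.7% of genes. Psmb8 was at 1.74 and 2.05 CPM in nt and 4.96 and 5.98 CPM in siWdr5, a rise of 1.53 (SE 0.28, adjusted p = 0.00741). Tap1 rose from 21.6 and 17.1 CPM to 30.5 and 40.3 CPM (0.86, SE 0.22, adjusted p = 0.0216) and Irf1 from 21.3 and 14.4 CPM to 24.3 and 32.4 CPM (0.68, SE 0.20, adjusted p = 0.0381). Both siWdr5 libraries lay above both nt libraries in each of these 3 genes, as they did in 41.3% of all genes. The untested Psmb9 held 4 and 5 reads in nt and 16 and 34 reads in siWdr5, and passed where no filter was applied (1.43, adjusted p = 0.0252).

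Bst2 was lower in siWdr5 at day 6 as well, at 39.4 and 24.9 CPM against 68.3 and 65.2 CPM in nt (log2 fold change -1.09, SE 0.25, adjusted p = 0.0150). Its call was lost without nt R1, nt R2 or siWdr5 R2 (adjusted p = 0.0835, 0.0794 and 0.157), and that of Psmb8 without nt R1 or siWdr5 R2 (adjusted p = 0.0502 and 0.0910). The whole count fell to 2 higher and 0 lower without nt R1, to 1 and 0 without nt R2 and to 0 without siWdr5 R2, while without siWdr5 R1 it was 5 and 1. Ifit1 and Ifit2 did not pass, with levels in siWdr5 at day 6 of 0.481 and 0.976 CPM for Ifit1 (nt 1.26 and 1.73 CPM) and 6.34 and 8.69 CPM for Ifit2 (nt 10.7 and 11.5 CPM), below nt in both libraries. Their log2 fold changes were -1.11 (adjusted p = 0.159) and -0.58 (adjusted p = 0.0714).

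The RNA sensors did not pass in siWdr5 at day 6. Ddx58 (33.4 and 36.2 CPM, adjusted p = 0.0831), Eif2ak2 (23 and 28.1 CPM, adjusted p = 0.0557) and Trim25 (62.0 and 66.3 CPM, adjusted p = 0.196) lay above nt in both libraries. Ifih1 (3.03 and 3.99 CPM), Dhx58 (2.27 and 2.04 CPM), Zbp1 (1.72 and 3.11 CPM) and Adar (29.4 and 35.3 CPM) overlapped with nt. Of the transcription factors other than Irf1, Irf7 was at 1.65 and 2.58 CPM, Irf9 at 13.3 and 14.5 CPM, Stat2 at 14.6 and 18.3 CPM (nt 15.3 CPM in both libraries) and Irf3 at 42.5 and 45 CPM, with log2 fold changes between -0.22 and 0.10.

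Culture markers differed in siWdr5 at day 6 as well. Of 10 fibroblast markers 5 rose and 1 fell, where 16.1% of all genes rose and 5.7% fell. Their sum was 9027 and 12355 CPM against 4920 and 4716 CPM in nt. The macrophage marker Csf1r (1.33, adjusted p = 0.0292) and the endothelial marker Tek (1.02, adjusted p = 0.00636) rose, and Cd14 fell by 1.58 (adjusted p = 0.0156). Kdr, the other endothelial marker tested, did not pass (0.39, adjusted p = 0.660). Their part in the siWdr5 results of day 6 was not tested.

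In siBrca1 at day 6 no member passed in either direction (limma, with 0% of all genes higher and 0% lower, and 0 members with limma-voom on the recovered reads). At an unadjusted p under 0.05, 19 of 36 members were higher and 0 lower, where 5.13% of all genes were higher and 2.87% lower at that limit, and the smallest adjusted p of a member was 0.330. Of the 36, 33 had a log2 fold change above 0, where 54.9% of all genes did, and their median was 0.54 beside 0.03 over all genes. Both siBrca1 libraries lay above both nt libraries in 25 members and below both in 1, where 21.9% and 15% of all genes did so.

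The siBrca1 R1 library at day 6 stood apart from its partner in many effectors. Ifit1 was at 6.99 CPM in R1 and 3.17 CPM in R2, against 1.26 and 1.73 CPM in nt, with both above nt (1.67, SE 0.53, adjusted p = 0.493). Isg15 was at 4.91 CPM in R1 and 1.22 CPM in R2, against 0.856 and 0.694 CPM in nt. Irf7 was at 6.47 and 3.71 CPM against 2.54 and 2.29 CPM, and Irf9 at 26.7 and 18.3 CPM against 14.6 and 13.3 CPM. R1 was the highest of all 16 libraries for Ifit1, Isg15, Irf7 and Irf9.

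Over the 36 members, the median difference from the nt mean was 0.64 in siBrca1 R1, with 33 members above, and 0.42 in R2, with 32 above. Of all genes, 53.3% lay above the nt mean in R1 and 54.2% in R2. The members of R2 alone thus also lay mostly above nt. The sensors followed, with Ddx58 at 42.8 and 38.3 CPM (nt 26.7 and 28.4 CPM), Eif2ak2 at 25.2 and 30.4 CPM (nt 18.7 and 18.4 CPM), Ifih1 at 4.99 and 4.86 CPM (nt 3.18 and 4.04 CPM) and Zbp1 at 3.95 and 3.17 CPM (nt 2.06 and 1.73 CPM). Both libraries were above nt in each of these, and none passed (adjusted p = 0.330 to 0.699). Dhx58 was at 4.47 CPM in R1 and 1.75 CPM in R2, on either side of nt. Trim25 (70.1 and 62.5 CPM) and Stat2 (25.4 and 18.3 CPM) lay above nt, Adar (35.6 and 29.5 CPM) and Irf1 (20.6 and 21.5 CPM) did not separate, and Irf3 was at 45.7 and 38.7 CPM against 45.2 and 45.9 CPM.

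In siBard1 at day 6, 0 members passed in either direction with limma, where 0.0784% of all genes were higher and 0% lower, and 0 with limma-voom. At an unadjusted p under 0.05, 9 members were higher and 0 lower, against 9.76% and 3.84% of all genes. The fold change was above 0 in 34 of 36 members, where 59.4% of all genes were above 0, with a median of 0.27 beside 0.06 over all genes. After the median over all genes was made equal in every library, 30 of the 36 were above 0. Both libraries lay above both nt libraries in 18 members and below in 2, against 34.2% and 17.4% of all genes. For siWdr5 at day 6 these counts were 12 above and 9 below, against 41.3% and 27.4%.

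The siBard1 libraries of day 6 differed from each other. The median difference from nt was 0.12 in R1, with 23 of 36 members above, and 0.45 in R2, with 33 above. Of all genes, 59.4% lay above nt in R1 and 59.5% in R2, so that the count of R1 was near that share. Ifit1 was at 2.17 and 5.69 CPM, Rsad2 at 4 and 69 reads and Isg15 at 4 and 27 reads, each higher in R2. Ddx58 (33.7 and 37.2 CPM), Irf1 (28.2 and 24.6 CPM) and Psmb8 (5.70 and 3.48 CPM) were above nt in both. Ifih1 was at 3.29 and 5.22 CPM, Eif2ak2 at 22.8 and 22.0 CPM, Irf7 at 2.02 and 3.67 CPM, Irf9 at 15.0 and 19.4 CPM, Stat2 at 13.7 and 17.7 CPM and Irf3 at 43.1 and 43.0 CPM. Trim25 was at 54.7 and 66.4 CPM, Dhx58 at 2.54 and 2.49 CPM, Zbp1 at 2.62 and 2.40 CPM and Adar at 28.0 and 32.3 CPM.

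**Figure D4:**
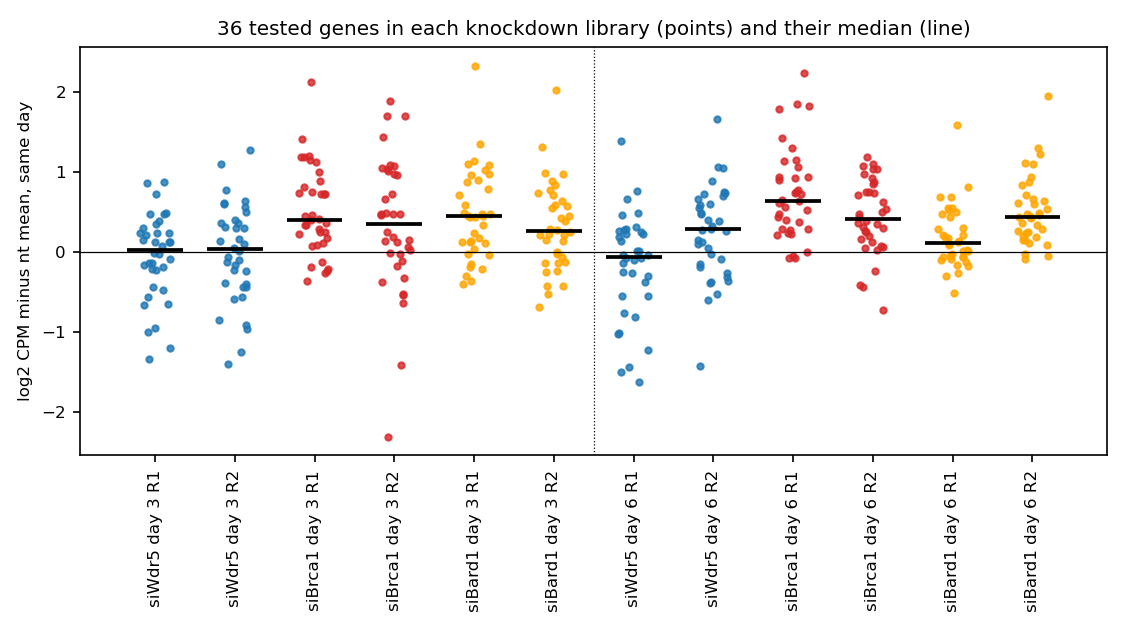
Difference in log2 CPM from the mean of the nt libraries of the same day (vertical axis) for the 36 tested members (points) in each of the 12 knockdown libraries, with their median as a line. The medians of siBrca1 lie at 0.41 and 0.36 at day 3 and 0.64 and 0.42 at day 6, while those of siWdr5 lie between -0.05 and 0.29.

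The difference between the days in the response to a knockdown was tested as an interaction. For siWdr5 and siBard1 no member passed in limma or limma-voom. In limma, 3.4% and 1.03% of all genes passed higher and lower for siWdr5, and 0.0214% and 0.0285% for siBard1. For siBrca1, 1 passed higher and 2 lower, against 10.3% in each direction. Dtx3l, which was at 16.4 and 11.6 CPM at day 3 (nt 18.4 and 17.5 CPM) and 14.2 CPM in both libraries at day 6 (nt 9.25 and 10.4 CPM), had a siBrca1 response that was 0.91 higher at day 6. Ifit2 and Lgals3bp had a lower siBrca1 response at day 6. For Ifit2, siBrca1 was at 10.7 and 11.7 CPM at day 6 beside 10.7 and 11.5 CPM in nt. For Lgals3bp it was at 143 and 96.1 CPM beside 96.7 and 76.2 CPM. These calls depended on single libraries: 0 members passed without nt day 3 R1, nt day 3 R2 or siBrca1 day 3 R2, 1 without nt day 6 R1, 2 without nt day 6 R2, 4 without siBrca1 day 6 R2, 6 without siBrca1 day 6 R1 and 7 without siBrca1 day 3 R1.

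**Figure D5:**
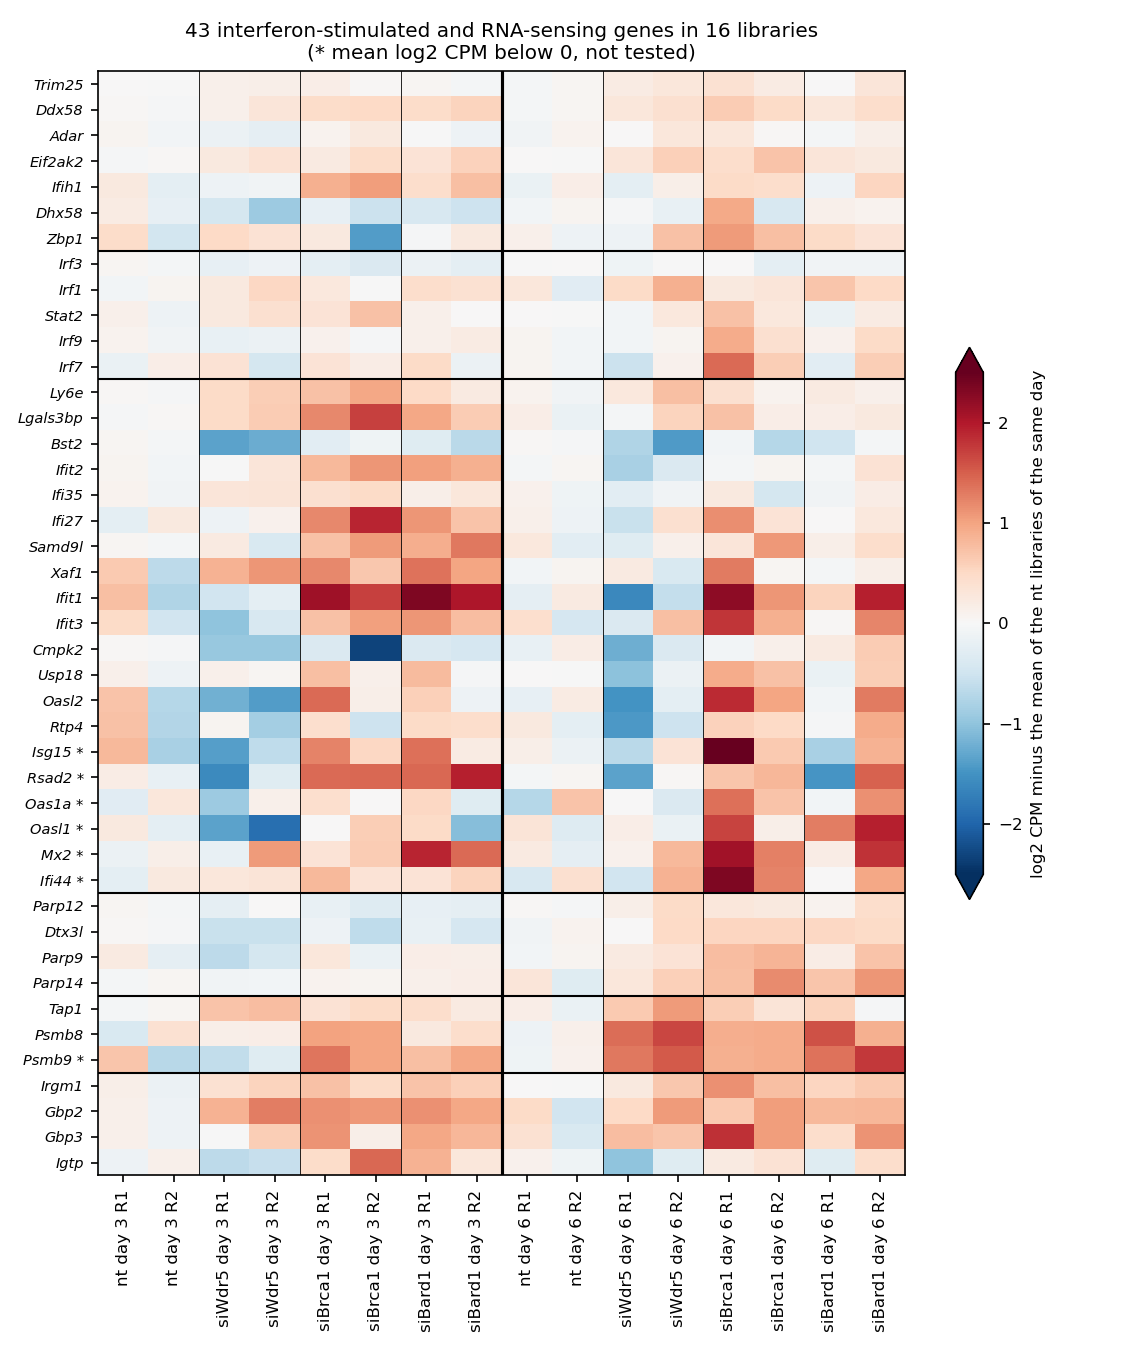
Log2 CPM minus the mean of the nt libraries of the same day (colour) for the 43 measured members (rows, grouped by role) in all 16 libraries (columns). The siBrca1 R1 library of day 6 holds deep red for Isg15, Ifi44 and Ifit1, and the Bst2 row is blue in all siWdr5 libraries.

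Other genes of the pathway gave the following. No row of the table held Ifnb1, Ifng or the 6 other interferon genes listed, which were not analysed here, and 6 of 14 ligand and receptor genes were measured, of which 5 were tested. Of these 5 at day 3, 3 rose in siWdr5, 4 in siBrca1 and 2 in siBard1, and 0 fell, where 18.3%, 25.4% and 8.67% of all genes rose. They were Ifngr2, a chain of the interferon gamma receptor (0.89, 1.00 and 0.52), Ifngr1 (0.58, 0.70 and 0.44), Ifnar1, a chain of the type I receptor (0.47 in siWdr5 and 0.33 in siBrca1), and Il10rb (0.68 in siBrca1). At day 6, 3 rose in siWdr5 (16.1% of all genes did) and 0 in siBrca1 or siBard1.

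Below the sensors and receptors, 16 of 19 listed signalling genes were tested. The shares that rose were below the 25.4% of all genes in siBrca1 (3 of 16) and the 8.67% in siBard1 (1 of 16), and above the 18.3% in siWdr5 (5 of 16). In siWdr5 at day 3, 5 rose and 1 fell, with Jak1 (0.82), Irf5 (0.72), the feedback inhibitors Socs1 (0.67) and Socs3 (0.57) and Irf2 (0.33) higher and the adaptor Mavs lower (-0.32). In siBrca1, 3 rose and 0 fell, namely Ticam1, an adaptor of double-stranded RNA sensing (1.03), Jak1 (0.86) and the kinase Ikbke (0.57). In siBard1, Jak1 rose (0.63) and 0 fell.

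Of 60 other interferon-stimulated genes, 51 had a row and 33 were tested. At day 3, 7 rose and 1 fell in siWdr5, 16 rose and 2 fell in siBrca1, and 4 rose and 1 fell in siBard1. Over all genes 18.3%, 25.4% and 8.67% rose and 16.8%, 21.8% and 5.87% fell, so that the count of rises stood well above the share of all genes in siBrca1 and near it in siWdr5 and siBard1. The largest in siWdr5 were Slfn2 (2.12), the galectin Lgals9 (1.53), Tdrd7 (0.71), B2m (0.62) and the class I gene H2-K1 (-0.66), whose close paralogs can share its reads. In siBrca1 they were Tap2 (1.58), Slfn2 (1.41), Ifitm1 (-1.38), Lgals9 (1.35) and H2-K1 (1.22). In siBard1 they were Ifitm1 (-1.08), Lgals9 (0.87), B2m (0.56), Tdrd7 (0.54) and Psme2 (0.48). At day 6, 5 rose and 1 fell in siWdr5, where 16.1% of all genes rose and 5.7% fell. In siBrca1 and siBard1 0 changed, where 0% and 0.0784% of all genes rose and 0% fell. At an unadjusted p under 0.05 (limma), 7 changed in siBrca1, where 5.13% of all genes were higher and 2.87% lower. In siBard1 6 did so, against 9.76% and 3.84% of all genes. H2-K1, like Bst2, was lower in siWdr5 on both days and rose along the nt course (2.00, adjusted p = 1.21e-06).

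Other features of the cultures also differed between the groups, and their part in the members' changes was not tested. At day 3 the fibroblast markers summed to 7734 and 8738 CPM in nt and 13678 and 14198 CPM in siWdr5. They summed to 12726 and 11581 CPM in siBrca1 and 11243 and 9659 CPM in siBard1. In siWdr5, siBrca1 and siBard1, 8, 7 and 1 of 10 rose, where 18.3%, 25.4% and 8.67% of all genes did. The 4 OSKM genes all fell at day 3, with medians of -0.62, -1.06 and -1.03, where 16.8%, 21.8% and 5.87% of all genes fell. Their sum was 1848 and 1985 CPM in nt and 778 to 1294 CPM in the knockdown libraries. The lentiviral cassette carries all 4, so their falls are not separate observations. Reads of the cassette and of the cells' own genes were not told apart. Of 14 macrophage and leukocyte markers, 7 had no row, among them Ptprc, Itgam and Cd3e, and the rest summed to 7.70 to 25.9 CPM in any library. At day 3 that sum was 8.77 and 7.70 CPM in nt and 12.4 and 14.3 CPM in siWdr5. It was 19.2 and 17.0 CPM in siBrca1, and 9.81 and 8.73 CPM in siBard1, which overlapped with nt. Of the 4 tested, Cd68 (1.07) and Csf1r (1.06) rose in siBrca1, and Csf1r rose in siWdr5 (1.81). Cd14 (-0.05 in siBrca1 and -0.31 in siWdr5) and Lyz2 (1.40 and 0.81) did not pass there. In siBard1 none of them passed, with Lyz2 at -1.22. Endothelial markers summed to 15.2 to 59.3 CPM and 0 of the 2 tested passed at day 3. Most of that sum was Tek, at 40.6 of 41.9 CPM in nt R1 of day 3. Pecam1, Cdh5 and Emcn held 0 to 5 reads a library at day 3, and Tie1 and Cldn5 had no row.

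Small RNAs and ribosomal RNA were also read where the table had them, and whether any of them reached a sensor was not measured. Of 7 small RNAs made by RNA polymerase III with a row, 6 were tested. Rny3, a Y RNA, rose at day 3 in siWdr5 (1.55), siBrca1 (1.77) and siBard1 (2.97), and Rny1 in siBard1 (2.18), while Rpph1 fell in siWdr5 (by 1.11). Rny3 was low in reads, with 4 and 3 in nt, 10 and 19 in siWdr5, 18 and 12 in siBrca1 and 23 and 80 in siBard1. The summed level of the small RNA list overlapped between nt (7865 and 5894 CPM) and the knockdowns (4372 to 7403 CPM). Nearly all of it was Rn7sk, at 7853 CPM in nt R1, so the sum does not describe the other small RNAs. Ribosomal RNA and its fragments, which the library kit depletes, had 6 listed rows. At day 3 these summed to 3553 and 1612 CPM in nt and 14.1 to 686 CPM in the knockdown libraries. In siWdr5, siBrca1 and siBard1, 6, 3 and 6 of 6 fell, where 16.8%, 21.8% and 5.87% of all genes did. Within siBrca1 at day 6 the sum was 43.8 CPM in R1 and 1254 CPM in R2. Their part in the results was not tested.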

How the data were processed

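RNA was depleted of ribosomal RNA, made into libraries with the KAPA RNA Hyper Prep kit and sequenced. The authors aligned reads with STAR 2.5.2b to mm10 and deposited log2 CPM per gene, made with edgeR 3.20.9. The read counter, annotation and strand setting are not given in the sources used here. Every value corresponded to a whole number of reads (100% within 0.1 reads for values up to 10000 reads).

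Groups came from the labels. Deposited log2 CPM values were tested with limma 3.58.1 in R 4.3.3 (lmFit, eBayes with trend), over the 8 libraries of a day for knockdown comparisons and over all 16 for the nt course and interactions. The test covered 14028 genes whose log2 CPM averaged 0 or more, and p-values were two-sided and Benjamini-Hochberg adjusted over all of them. "Rose" and "fell" mean adjusted p under 0.05. With 2 libraries a group, precision is limited, and read floors cover counting error only. The test was checked on simulated data.

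The members and lists were chosen with earlier results of these data known. Values by library are given for members that passed with a log2 fold change beyond 1 against nt or along the nt course, and for all sensors and transcription factors. In other lists up to 5 genes with the largest change at day 3 are named. Further genes were named after their values were seen. Gene positions are from GENCODE vM21, promoters from RefSeq. No replicate block was used. Alternatives were another filter, set of libraries, scaling and pseudocount (1 CPM), no trend, a fold limit, a replicate block, each library left out and, added after seeing the data, limma-voom on the recovered reads.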

Additional observations from a re-analysis of the deposited data

Results flagged for a closer look

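In 3 members the siBrca1 response differed between the days by the interaction test (limma, all 16 libraries). Dtx3l had a response 0.91 higher at day 6 than at day 3 (adjusted p = 0.0220). Ifit2 had a response of -0.95 (adjusted p = 0.0228) and Lgals3bp of -0.998 (adjusted p = 0.0293) at day 6 relative to day 3. The siRNA effect on Brca1 itself differed too: it was 1.58 higher at day 6 than at day 3 (adjusted p = 0.00390), with 35.9 and 40.1 CPM in siBrca1 at day 6 beside 33.2 and 42.6 CPM in nt. Its part in the 3 results was not tested.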

How the results depend on the processing

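With 2 libraries a group, the counts of members that passed moved with the libraries left out (a lone sample is then assumed to vary like the other groups): siWdr5 day 3 4 to 6, siBrca1 day 3 8 to 18, siBard1 day 3 3 to 5, siBard1 against siWdr5 1 to 2, siBard1 against siBrca1 0 to 7, siBrca1 against siWdr5 3 to 13, siWdr5 day 6 0 to 6, siBrca1 and siBard1 day 6 0, the nt course 7 to 10, and the interactions 0 for siWdr5 and siBard1 and 0 to 7 for siBrca1. For the 18 calls that passed with a log2 fold change beyond 1, no alternative changed the sign, and 29 of their 239 refits lost the call. No share of all genes is given for the refits without 1 library, so their counts do not set the members apart from other genes. Depth limits the members below 10 reads a library.

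The comparisons in parentheses moved by over 1.5 times. With the 4 libraries compared, the counts were 13 (siWdr5 day 3, main 6), 10 (siBard1 against siWdr5, main 6), 0 (siBard1 against siBrca1, main 2) and 7 (siWdr5 day 6, main 4). With all 16 libraries they were 9 (siWdr5 day 6) and 1 (siBard1 day 6, main 0). With no filter they were 5 (siBard1 day 3, main 10) and 1 (siBard1 against siBrca1), and with genes kept only where log2 CPM averaged 2 or more the count was 6 (siBrca1 against siWdr5, main 10), where fewer genes were tested. With no trend they were 4 (siBard1 day 3), 0 (siBard1 against siBrca1) and 1 (siWdr5 day 6). Quantile normalization gave 6 (siBrca1 interaction, main 3), and limma-voom gave 4 (siBard1 against siBrca1). A log2 fold change above 1 left 2 (siWdr5 day 3), 5 (siBrca1 day 3), 3 (siBard1 day 3), 3 (siBard1 against siWdr5), 0 (siBard1 against siBrca1), 2 (siWdr5 day 6), 6 (nt course) and 0 (siBrca1 interaction). Apart from the changes that fewer genes or the fold limit make by construction, the cause was not tested.

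The labels do not say that a replicate number marks a shared experiment, and the correlation of replicate differences between groups ran from -0.0931 to 0.0721 at day 3 and from -0.0696 to 0.260 at day 6, over 0.1 in 3 of 12 pairs of groups. The summed level of the small RNA list, nearly all Rn7sk, was higher in R1 than in R2 in every group. In nt at day 6 it was 22853 against 14122 CPM. Whether the numbers mark shared experiments cannot be told from these values. With the replicate block, 7 members passed in siWdr5 at day 6 against 4 without it, and no other count moved by over 1.5 times. In siWdr5 at day 3 the block gave 5 higher and 4 lower. The planned edgeR quasi-likelihood and DESeq2 fits were not run, since the deposited values are log2 CPM.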
